A study of Mus musculus with 4 samples.

Results

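The comparison described here sets the pontine nucleus on postnatal day 1 (P1) against the same nucleus at embryonic day 17.5 (E17.5), on either side of birth, in ICR mice, an outbred stock. The E17.5 array carried RNA pooled from the dissected nuclei of 27 mice, and the P1 array RNA pooled from 16. Neither group carried a transgene, a deletion or a treatment in its labels, and the tissue was dissected, not sorted. Arrays of 2 later ages, labelled P5 and P14, complete the series of 4 arrays, with 1 pooled array per age. For every gene the P1 value minus the E17.5 value was taken on the log2 scale, where a difference of 1 is 2-fold. Of 35556 probe sets, 21789 carried exactly 1 gene symbol, and they gave 19938 genes, each read by the probe set with the highest mean over both arrays. Of these genes, 10173 reached 8.37 on at least 1 of the arrays, the median of all such probe sets on them, and 9765 did not. Of the genes that reached this level, 647 did so on 1 array only, 331 at P1 and 316 at E17.5, and such a gene had to differ in that direction.

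The pontine nucleus is the main relay between the cerebral cortex and the cerebellum. Its glutamatergic neurons are born in the rhombic lip, move through the brainstem in a migratory stream before birth, settle in the ventral pons, and send mossy fibres to the cerebellum. Around birth this migration comes to an end, while astrocytes and the oligodendrocyte lineage, which makes myelin, expand among them. Birth itself changes the supply of oxygen, fuel and hormones to the brain.

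With 1 array per age there was no replicate and no test, so every difference is one between 2 pools and nothing is said about its chance. The only error the files allow is the spread between probe sets of a gene. Its standard deviation was 0.12 on the log2 scale over 623 genes, with 0.14 for genes below and 0.11 for genes above the median level of 9.825. A 2-fold difference was thus 8.63 times, and a 1.5-fold difference 5.05 times, this standard deviation, which leaves out the spread between animals and between pools. Where the lower value of a gene lay under 8.37, the size of its difference is inexact and no fold is given. The arrays labelled P5 and P14 do not follow the order of their labels in genes of known course. The myelin gene Mog stood at 7.18, 7.39, 12.91 and 8.27 on the arrays labelled E17.5, P1, P5 and P14, and Dcx, of migrating neurons, at 12.97, 12.88, 9.79 and 12.14. No difference given for P1 against E17.5 uses either later array, and levels from them are printed under their deposited labels. Among the defining genes of pontine neurons, Barhl1, the homeobox factor of rhombic lip derivatives, stood at 12.23 and 11.79 on the E17.5 and P1 arrays, Pax6 at 11.52 and 11.03, and Slc17a6, the glutamate transporter of brainstem neurons, at 11.44 and 11.17. All 17 genes of choroid plexus and ependyma on the array lay under the level filter at both ages. Xist, of female cells, stood at 12.48 and 12.60, and the Y-linked Eif2s3y at 9.60 and 9.69, so both pools gave signal for both. In tissue RNA, fewer cells of a type and less RNA per cell cannot be told apart.

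The arrays were alike over most genes, and the large differences were more often toward P1. Of the 10173 genes, 67.7% differed by at most 0.25, the median difference was -0.07, 61.8% had a negative difference (55.7% of all 19938 genes), and 95% of the differences lay from -0.56 to 0.70. At least 2-fold differences numbered 115 (1.13% of the genes), 85 of them higher at P1 (0.836%) and 30 lower (0.295%). At least 1.5-fold, 367 genes were higher at P1 (3.61%) and 219 lower (2.15%), so that 62.6% of these 586 genes (5.76%) were higher. With the median difference of -0.07 subtracted from the difference of every gene, that share was 76.9% (483 higher, 145 lower). With the trend against level removed it was 75.9%. Of the 115 genes, 49 had a lower value under 8.37, and 83 lay below the median level. Nearest to the 2-fold line, Kcnma1, Pcp4 and Sidt1 lay just inside at 1.00 and Asrgl1, Cnnm1, Fmo1 and Selenov just outside at 0.99. On the other side Chrna3 (8.96 and 7.96) lay just inside and Slco5a1 just outside at -0.98.

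**Figure D1:**
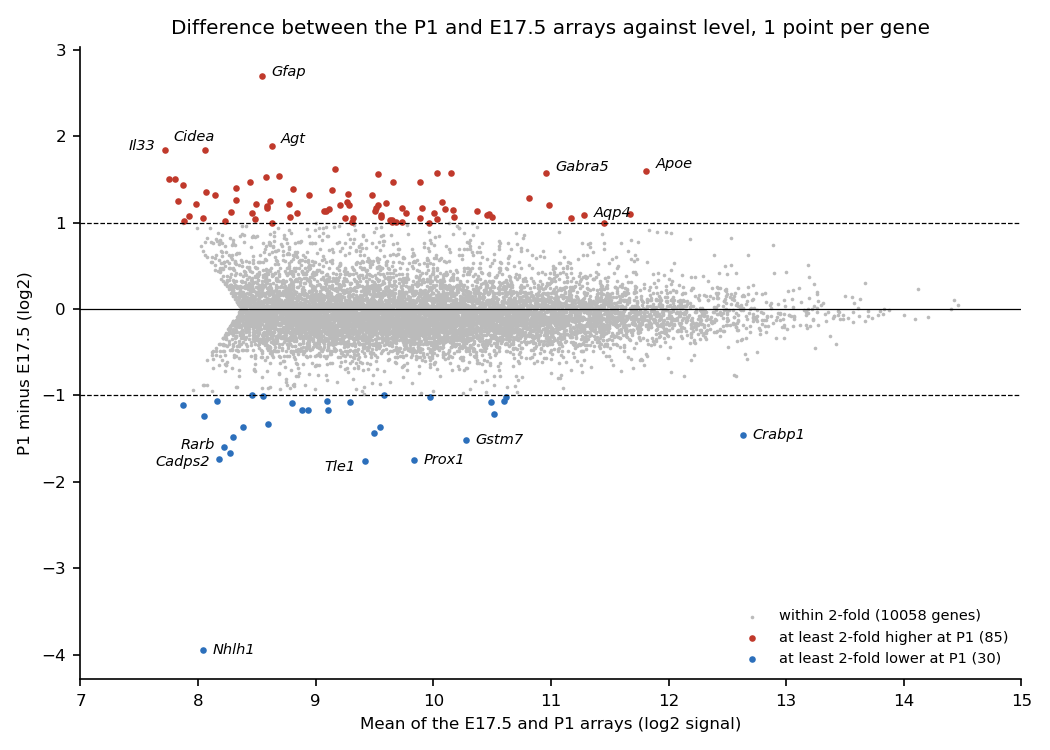
P1 minus E17.5 (log2, y axis) against the mean of both arrays (log2 signal, x axis) for the 10173 genes past the level filter, 1 point per gene, with dashed lines at 2-fold. The 85 genes at least 2-fold higher at P1 (red) reach 2.70 in Gfap, the 30 at least 2-fold lower (blue) reach -3.95 in Nhlh1, and Crabp1 is the blue point at the highest level.

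The 20 largest positive differences mixed genes of astrocytes with genes of neuronal signalling. Gfap, the intermediate filament of astrocytes, read 7.19 on the E17.5 array and 9.89 on the P1 array, the largest difference toward P1 (2.70). Agt, the angiotensin precursor that brain astrocytes make, stood at 7.68 and 9.57. The lipid droplet protein Cidea stood at 7.14 and 8.98, and Il33, a nuclear cytokine of glia, at 6.80 and 8.64. These 4 genes were under 8.37 at E17.5, so they are read as low on that array rather than by a fold. Where both levels were above it, folds can be given. Apoe, the lipid carrier of astrocytes, was 3.03-fold higher at P1 (11.01 and 12.61). Ptk2b, a calcium-activated tyrosine kinase, was 2.99-fold higher (9.36 and 10.94), and Gabra5, an alpha subunit of the GABA-A receptor, 2.97-fold (10.17 and 11.74). Rasgrp2, a calcium-dependent activator of Rap, was also 2.97-fold higher (9.25 and 10.82). Grm7, an inhibitory glutamate receptor of nerve terminals, and Epha6, a receptor for ephrins, were each 2.77-fold higher, Grm7 at 9.15 and 10.62 and Epha6 at 8.92 and 10.39. Tmem196, a membrane protein, was 2.95-fold higher on its brighter probe set, while its other probe set differed by 0.44.

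The rest of the 20 started from low levels at E17.5. Lynx1, which tempers nicotinic receptors, stood at 8.35 and 9.97. The Ras activator Rasgrf2 stood at 7.92 and 9.46, and Rgs4, which shortens G protein signals, at 7.81 and 9.34. Papss2, which makes the sulphate donor for proteoglycans, stood at 7.0 and 8.51, and the Wnt amplifier Rspo2 at 7.05 and 8.55. Slc7a3, a transporter of cationic amino acids, stood at 7.71 and 9.18, and the peptide-cutting enzyme Mme, neprilysin, at 7.16 and 8.59. Serpina3n, a protease inhibitor of reactive astrocytes, stood at 7.62 and 9.02, and the protease-like Prss35 at 8.11 and 9.50. All 9 lay under 8.37 at E17.5 and above it at P1.

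Transcriptional regulators of young neurons led the 20 largest negative differences. Nhlh1, a helix-loop-helix factor that neurons use briefly after their birth, read 10.02 on the E17.5 array and 6.07 on the P1 array, under the lower quartile of its array (6.53). Its relative Nhlh2 stood at 9.52 and 8.35. Tle1, a Groucho corepressor, was 3.39-fold lower at P1 (10.30 and 8.54). The homeobox factor Prox1 was 3.36-fold lower (10.71 and 8.96), and Ebf3, a factor of migrating neurons, 2.57-fold lower (10.23 and 8.87). Lhx2, a LIM homeobox factor, stood at 9.26 and 7.93. The Hox gene Hoxc5 stood at 9.04 and 7.56. So 7 of the 20 genes encode regulators of transcription other than the retinoid receptor described next. The share of such regulators among all genes past the filter was not counted, so the 7 only describe the 20 genes. Nhlh1, Nhlh2, Lhx2 and Hoxc5 passed through E17.5 only and so had to be lower.

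Retinoid handling, synaptic and other genes made up the remainder. Crabp1, which binds retinoic acid in the cytoplasm, was 2.75-fold lower at P1 (13.36 and 11.90), and the retinoic acid receptor Rarb stood at 9.02 and 7.42. Cadps2, a priming factor of dense core vesicles, stood at 9.05 and 7.31, and the AMPA receptor subunit Gria1 at 9.06 and 7.70. Slc6a5, the glycine transporter of glycinergic neurons, stood at 8.67 and 7.43, and Th, the rate-limiting enzyme of catecholamine synthesis, at 8.43 and 7.32. Gstm7, a glutathione transferase, was 2.87-fold lower (11.04 and 9.52), the ubiquitin ligase Pdzrn3 2.69-fold lower (10.21 and 8.78), Phlda1 2.33-fold lower (11.13 and 9.91) and Sertm1 2.25-fold lower (9.69 and 8.52). Lamp5, a lysosome-related membrane protein of some neurons, stood at 9.11 and 7.44, and the mitotic protein Pimreg at 9.47 and 8.30. Syne2, which links the nucleus to the cytoskeleton in migrating cells, stood at 9.34 and 8.25, and its 4 probe sets differed by -1.19 to -0.87.

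**Figure D2:**
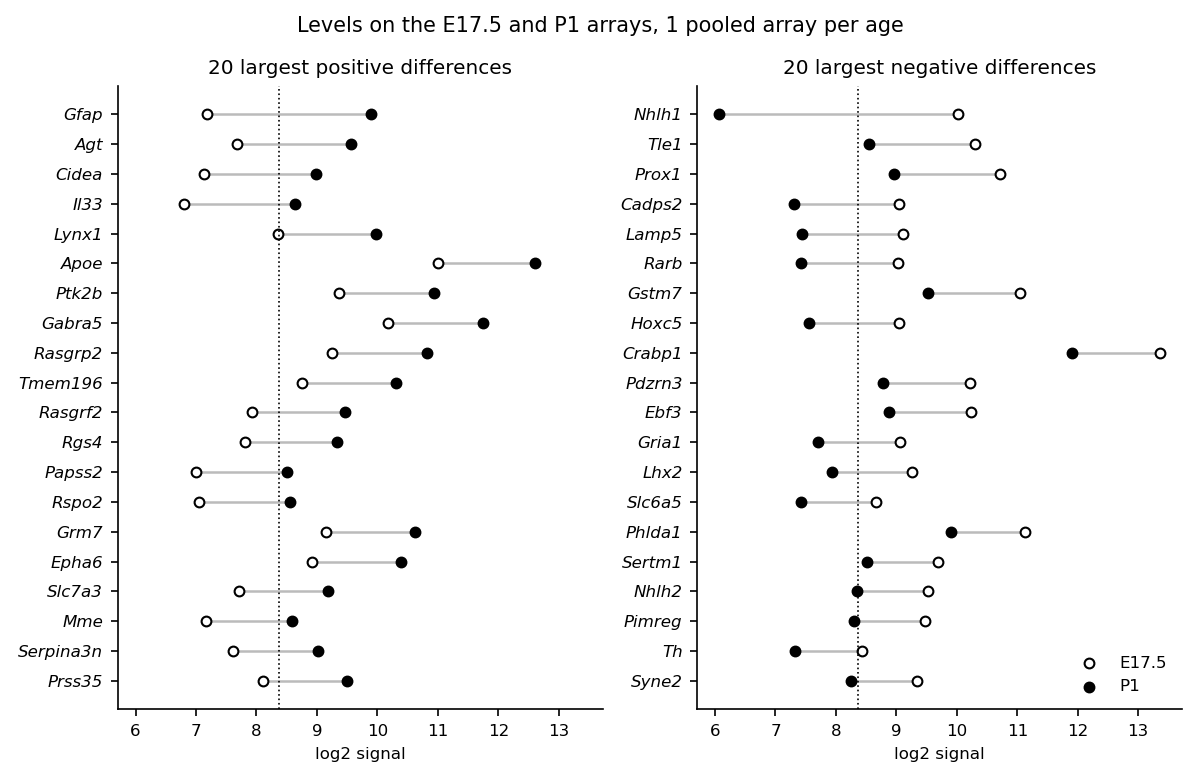
Levels (log2 signal, x axis) on the E17.5 array (open circles) and the P1 array (filled circles) of the 20 genes with the largest positive (left) and the 20 with the largest negative (right) differences, with the level filter of 8.37 dotted. Gfap goes from 7.19 to 9.89 and Apoe from 11.01 to 12.61, while Nhlh1 goes from 10.02 to 6.07 and Crabp1 from 13.36 to 11.90.

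Astrocyte genes stood higher at P1 nearly throughout. Of 39 on the array, 37 had a positive difference, and their median was 0.69, where 42.3% of all 19938 genes were positive and the median was -0.03. Past the filter were 32 genes, 6 of them through 1 array only, with a median of 0.795, 9 at least 2-fold higher (against 0.836% of all genes past it) and 21 at least 1.5-fold higher. After Gfap, Agt, Il33 and Apoe came the chaperone Clu (8.82 and 10.14), Hepacam, an adhesion protein of astrocyte contacts (8.93 and 10.13), the gap junction protein Gja1 (9.32 and 10.49), F3, tissue factor (8.29 and 9.40), and the water channel Aqp4 (10.74 and 11.83). Glutamate uptake differed less. Slc1a3, the transporter GLAST of early astrocytes, stood at 11.55 and 12.09, whereas Slc1a2, the transporter GLT-1 of mature astrocytes, stood at 10.37 and 10.38. Glul, which turns glutamate into glutamine, stood at 11.33 and 11.53, and Ppp1r3c, a glycogen regulator, was the only member past the filter with a negative difference (-0.21). The 32 genes therefore ran from -0.21 to 2.70, with Slc1a2 and Glul near the lower end.

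Promoter sequences are shown for Gfap and Agt because they had the largest positive differences and both hold the palindrome TTCNNNGAA, the form bound by STAT factors, which act in astrocyte formation. Each sequence runs 5′ to 3′ on the gene's strand from 250 bases before to 50 bases after the start, from RefSeq on GRCm38.p6, with matches to TTCNNNGAA in capitals. Gfap lies on the minus strand at chr11:102897151-102897450 and Agt on the minus strand at chr8:124569657-124569956.
Gfap: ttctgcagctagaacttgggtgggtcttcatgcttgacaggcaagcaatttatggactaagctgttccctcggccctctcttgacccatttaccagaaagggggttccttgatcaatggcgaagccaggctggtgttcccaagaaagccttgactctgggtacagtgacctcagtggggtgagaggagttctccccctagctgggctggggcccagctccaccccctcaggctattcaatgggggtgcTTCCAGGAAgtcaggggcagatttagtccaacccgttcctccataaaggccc
Agt: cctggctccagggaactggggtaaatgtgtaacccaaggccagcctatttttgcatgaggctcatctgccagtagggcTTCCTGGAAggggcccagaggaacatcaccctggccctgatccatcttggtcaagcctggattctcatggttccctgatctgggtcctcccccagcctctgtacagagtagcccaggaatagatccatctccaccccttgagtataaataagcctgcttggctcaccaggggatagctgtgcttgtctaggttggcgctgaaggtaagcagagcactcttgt
The window was at hand for 8187 of the 10173 genes. TTCNNNGAA, which reads the same on both strands, occurred in 7.72% of them, in 6 of 26 astrocyte genes (23.1%), in 6 of 62 genes at least 2-fold higher at P1 (9.68%) and in 1 of 22 at least 2-fold lower (4.55%). The astrocyte genes with it were Gfap, Agt, Aldoc, Slc1a3, Ntsr2 and Acsbg1. Within the astrocyte list, the median difference was 0.71 over the 6 genes with the palindrome and 0.795 over the 20 without, so its presence did not go with a larger difference. Of 14 motif strings counted on both strands, others were also more frequent in the astrocyte list, among them TATAAA (23.1% against 8.04%) and AGGTCA (30.8% against 13.9%). The match describes letters in a window and not binding.

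Genes of the oligodendrocyte lineage were mostly higher at P1, while defining genes of mature myelin were low on both arrays. Of 32 precursor genes on the array, 30 had a positive difference (against 42.3% of all genes), with a median of 0.475. Of the 27 that passed, 3 through P1 only, 2 reached 2-fold in favour of P1 (against 0.836% of all genes), Bmp4 and Gpr17, and 10 reached 1.5-fold (against 3.61%). Their median was 0.5. Gpr17, a receptor of committed precursors, was at 8.94 and 10.07, Pdgfra, the receptor for the growth factor that drives precursor division, at 9.75 and 10.69, and the lineage factor Sox10 at 8.65 and 9.45. Bmp4, a signal secreted by early committed cells, was at 7.39 and 8.74. Vcan, a proteoglycan, went the other way by 0.16. Among 35 myelin and oligodendrocyte genes the median was 0.37, with 27 positive. The 18 that passed the filter, 7 of them through 1 array only, had a median of 0.635. At least 1.5-fold, 11 of these were higher, and 5 were at least 2-fold higher: Il33, Car2, a carbonic anhydrase (9.15 and 10.32), Gjc3, a connexin (8.28 and 9.60), Cnp, an enzyme of uncompacted myelin (9.51 and 10.55), and Plekhb1 (7.72 and 8.74). Mbp, the main cytoplasmic myelin protein, was 1.62-fold higher (9.35 and 10.05). Mog and Mobp, of mature myelin, lay under the filter on both arrays, Mobp at 7.05 on each.

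Microglial genes, those of the brain's resident macrophages, differed by less but in 1 direction. Of 34 on the array, 32 were positive (against 42.3% of all genes), with a median of 0.37. The 16 past the filter, 3 of them through 1 array only, were all positive, from 0.03 to 0.97. The purine receptor P2ry13 was at 8.84 and 9.81, the signalling adaptor Tyrobp at 8.23 and 8.98, P2ry12 at 7.66 and 8.39, and Csf1r, the receptor microglia need to survive, at 8.50 and 9.13. None was 2-fold apart, and 5 were at least 1.5-fold higher. Over the 4 glial lists, 85 of the 91 genes past the filter (17 through 1 array only) were positive, against 36.7% of all 10173 genes past it. Of the 91, 15 were at least 2-fold higher at P1, against 0.836% of all genes past the filter. Among these 15, Gfap, Agt, Il33, F3, Bmp4, Gjc3 and Plekhb1 passed through P1 only and had to be higher. Genes of vessels lay near the median of all genes. The 28 genes of endothelium and the blood-brain barrier had a median of -0.02, with Cldn5, the tight junction protein, at 10.69 and 10.78. Slco1c1, which carries thyroid hormone across the barrier and is also found in astrocytes, differed most among the 18 past the filter (8.81 and 9.59). The red cell list had 3 of 13 genes past the filter, and its median over all 13 was -0.08. Tfrc, the transferrin receptor, was at 9.90 and 10.53, and the spectrin Sptb at 9.91 and 10.30. Alas2, which starts haem synthesis in red cell precursors, was at 8.89 and 8.41, and the embryonic globin Hbb-y was under the filter at 6.84 and 6.74.

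**Figure D3:**
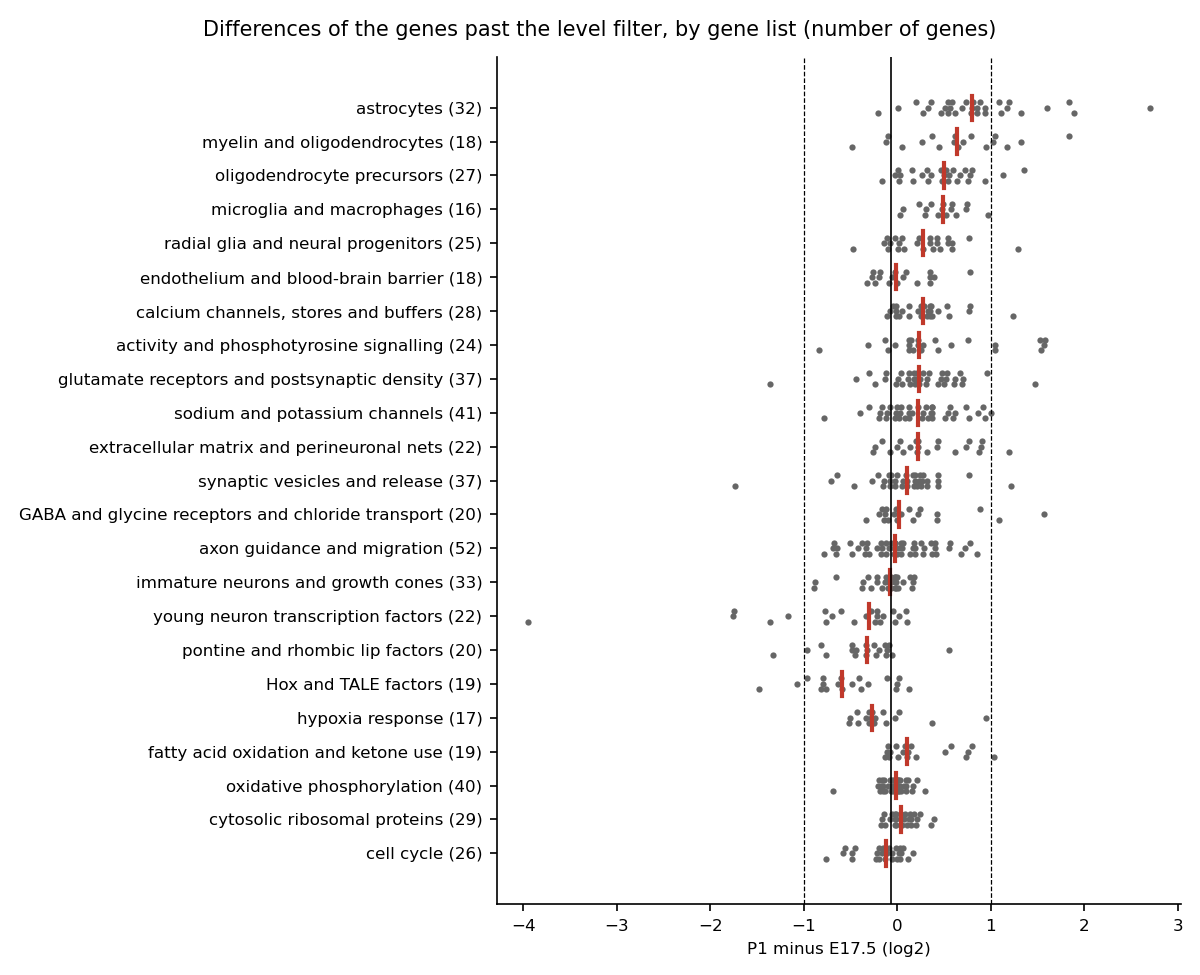
P1 minus E17.5 (log2, x axis) of the genes past the level filter on 23 gene lists (number of genes in brackets), 1 grey point per gene, with the list's median in red, the median of all genes (-0.07) as a solid line and dashed lines at 2-fold. The red bars lie at 0.795 for astrocytes, 0.5 for oligodendrocyte precursors and -0.59 for Hox and TALE factors, and at -0.015 for oxidative phosphorylation.

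Genes of radial glia, the progenitors that share many genes with astrocytes, were split. The 31 on the array had a median of 0.10, and the 25 past the filter one of 0.28. Ednrb, the endothelin receptor of glia and progenitors, was at 10.17 and 11.46, Ptprz1 at 11.21 and 11.98, and the stem cell factor Sox2 at 9.65 and 10.24. Nes, the filament of dividing progenitors, was at 9.41 and 8.94, and Vim, another such filament, at 12.80 and 12.69. The cell cycle list lay near the median of all genes. Over its 26 genes past the filter the median was -0.12, against -0.07 for all genes past it. Of the 26, 18 were negative, where 61.8% of all genes past the filter were. Over its 37 genes on the array the median was -0.06, against -0.03 for all genes. Mki67, a marker of dividing cells, was at 9.22 and 9.24. The replication helicase subunit Mcm7 was at 9.87 and 9.11, Rrm2, which makes deoxynucleotides, at 9.49 and 8.93, and the G1 kinase Cdk4 at 12.96 and 12.38. The mitotic kinase Cdk1 was at 8.93 and 8.97, so that Mki67 and Cdk1 were level while the other 3 were lower.

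Intracellular signalling downstream of calcium and G proteins had 6 genes at least 2-fold higher among 24 past the filter (against 0.836% of all genes). Of the 24, 5 passed through 1 array only, Rasgrf2 and Rgs4 among them. The list was drawn up knowing that Ptk2b and Rasgrp2 were high at P1, so its counts are a description. Besides these and Rasgrf2 and Rgs4, Rasgrp1, a diacylglycerol-controlled Ras activator, was at 8.72 and 9.77, and the calcium-stimulated adenylyl cyclase Adcy1 at 10.65 and 11.70. A second calcium-stimulated cyclase, Adcy8, was at 8.17 and 8.93. The phosphatase Dusp4, which ends ERK signals, was at 9.17 and 8.33, and Pde2a, which degrades cyclic nucleotides, at 10.07 and 9.76. The median over the 27 on the array was 0.22. Of the genes named, the activators of Ras and Rap stood higher on the P1 array, though Rasgrf2 passed through P1 only and so had to. Its relative Rasgrf1 was at 10.33 and 10.46. Dusp4 passed through E17.5 only and so had to be lower, while the related Dusp6 was at 8.89 on both arrays.

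Receptors and channels were higher at P1 in part. Of 43 genes of glutamate receptors and the postsynaptic density, 32 were positive (against 42.3% of all genes), with a median of 0.19. After Grm7, the AMPA receptor subunit Gria3 was at 9.72 and 10.68 and the NMDA receptor subunit Grin3a at 10.31 and 11.01, against Gria1 at 9.06 and 7.70. Grin2b, the NMDA subunit of young synapses, was at 11.92 and 12.06, and Grin2a, its later counterpart, lay under the filter at 6.68 and 6.83. Sodium and potassium channels had a median of 0.16 over 45 genes. Kcnma1, the calcium-gated potassium channel BK, differed by 1.00 on its brighter probe set and by 0.27 on the other. Kcnj10 (8.59 and 9.53) and Kcnj16 (8.53 and 9.45), which form potassium channels of glia, followed, and the leak channel Kcnk9 went the other way (11.09 and 10.31). Calcium channels, stores and buffers had a median of 0.25 over 33 genes, led by the buffer Calb2 (9.45 and 10.69) and the store channel Itpr2 (8.48 and 9.26), while their lowest member past the filter, Cacna2d1, differed by -0.11.

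Past the filter, inhibitory receptors were within 0.42 apart from 3 genes. The 26 genes of GABA and glycine receptors and chloride transport had a median of 0.01. Gabra5, Slc12a5, the chloride exporter that makes GABA inhibitory, at 9.91 and 11.00 (2.13-fold), and Gabrb2, at 10.26 and 11.14 with 0.88 to 1.05 over its 3 probe sets, stood apart from the others. Slc12a2, the chloride importer, was at 9.88 and 9.76, and Gabra2, the alpha subunit of the young brain, at 12.21 and 11.87. The next highest past the filter, the metabotropic receptor subunit Gabbr2 and the GABA-A subunit Gabrb1, differed by 0.42 each. The glycine receptor subunit Glra3 was under the filter at 5.91 and 6.78. Among 19 nicotinic and muscarinic genes, Lynx1 was the highest and the nicotinic subunit Chrna3 the lowest (8.96 and 7.96).

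Vesicle genes had a median of 0.095 over 40. Slc17a7, the vesicular glutamate transporter of mature mossy fibres, was at 8.16 and 9.38, and the calcium sensor Syt7 at 10.03 and 10.80. Cadps2, Synpr (8.83 and 8.12), a vesicle protein, and Sv2b (11.85 and 11.20), another, were lower. Axonal structure was likewise split: the tubulin Tuba4a (8.98 and 10.21) and the surface protein Thy1 (9.13 and 10.16) of mature axons were at least 2-fold higher, while Nefl, the light neurofilament, was at 12.41 and 12.03 and Ina, the filament of growing axons, at 13.63 and 13.22. In axon adhesion, Cdh9 was at 8.21 and 9.15 and Cntn1, which joins axons to glia, at 11.28 and 12.08, against Cntn2, of growing commissural axons, at 11.58 and 11.15. Each of these 3 groups thus held genes on both sides.

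Transcription factors of young neurons were mostly lower at P1. The list held Nhlh1, Tle1 and Prox1, already known from these data to be low, which limits what its count can say. Of 29 on the array, 24 were negative, with a median of -0.28, where 55.7% of all genes were negative and the median was -0.03. Of the 22 that passed, 2 through 1 array only, 5 reached 2-fold lower (against 0.295% of all genes) and 9 at least 1.5-fold. Beyond the factors named above, the chromatin-associated Insm1 was at 9.47 and 8.71, and Sox4 and Sox11, SOX factors of differentiating neurons, at 11.52 and 10.82 and at 12.52 and 11.75. Foxp4 (9.88 and 9.98) and Klf7 (12.43 and 12.52) were level. Structural and growth cone genes of immature neurons, 34 on the array, had a median of -0.075. Dcx was at 12.97 and 12.88 and Gap43, of growth cones, at 12.45 and 12.62. Gpc2, a proteoglycan of growing axons, was at 11.14 and 10.25, Igfbpl1 at 10.96 and 10.08, and Draxin, a guidance cue, at 10.88 and 10.22. None of the 33 past the filter was 2-fold apart.

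Factors that specify pontine neurons and their place along the hindbrain were lower as well. Over all genes on the array, 55.7% were negative and the median was -0.03. Among 25 pontine and rhombic lip factors, 22 were negative, with a median of -0.25. Lhx2 was the only one at least 2-fold lower (against 0.295% of all genes past the filter). Mab21l1 was at 10.38 and 9.41, Barhl2 at 10.87 and 10.05, Meis2 at 11.47 and 10.71, Pax6 at 11.52 and 11.03 and Barhl1 at 12.23 and 11.79, where Nfic, of the NFI family, was higher (9.43 and 9.98). The Hox genes, which set position along the body axis, and their TALE cofactors had a median of -0.38 over 27 genes, with 22 negative. Of the 19 that passed, 2 through 1 array only, 10 reached 1.5-fold lower (against 2.15% of all genes). The 2 at least 2-fold lower were Hoxc5 and Hoxa5 (9.63 and 8.56). Hoxd3 was at 10.74 and 9.77 and the cofactor Pbx3 at 11.13 and 10.31. Not all cofactors were lower, since Meis3 was at 10.27 and 10.39 and Pbx2 at 9.75 and 9.77.

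Retinoid genes as a whole were level (median 0.025 over 22), so Crabp1 and Rarb stood apart from their pathway. Cyp26b1, which degrades retinoic acid, was at 9.91 and 9.75, Rxrg, a partner receptor, at 8.52 and 9.36, and Dhrs3, which returns retinal to retinol, at 8.28 and 8.86. Guidance genes had a median of -0.02 over 56 and none was 2-fold apart. On one side lay the semaphorin receptors Plxna4 (9.62 and 10.47) and Plxnd1 (10.97 and 11.69) and the repellent Slit1 (9.15 and 9.93). On the other lay Dcc, the netrin receptor that draws pontine axons and cells to the midline (10.45 and 9.67), Robo3, which sets midline crossing (8.82 and 8.13), the semaphorin receptor Nrp1 (12.04 and 11.36) and Efna5 (11.01 and 10.35). Dcc was thus 1.72-fold lower at P1. Robo3 was under the filter at P1, so no fold is given, and having passed through E17.5 only it had to be lower.

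Genes of other hindbrain neurons bear on what was dissected. Of 30 markers of GABAergic, glycinergic, monoaminergic and motor neurons, 22 lay under the filter on both arrays, and the median over all 30 was -0.095. Of the 8 past it, 7 were negative, but Gad1, Slc6a5 and Th passed through E17.5 only and so had to be, and with both arrays past the filter the list's median was -0.08. The median level of the 8 was 8.965 at E17.5 and 8.58 at P1. Gad1 and Gad2, which make GABA, were at 8.50 and 7.85 and at 9.25 and 8.37, Lhx1, a factor of inhibitory neurons, at 9.86 and 8.96, and Slc6a5 and Th as given above. The serotonin transporter Slc6a4 was at 8.68 and 8.79. The summed share of such neurons in each pool was not measured, and its part in the lower pontine factors was not tested. The somatostatin receptors Sstr1 and Sstr2 were at 9.83 and 8.75 and at 8.70 and 7.63, Sstr3 was under the filter at 7.86 and 7.71, and the peptide Sst was at 13.07 and 12.89.

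**Figure D4:**
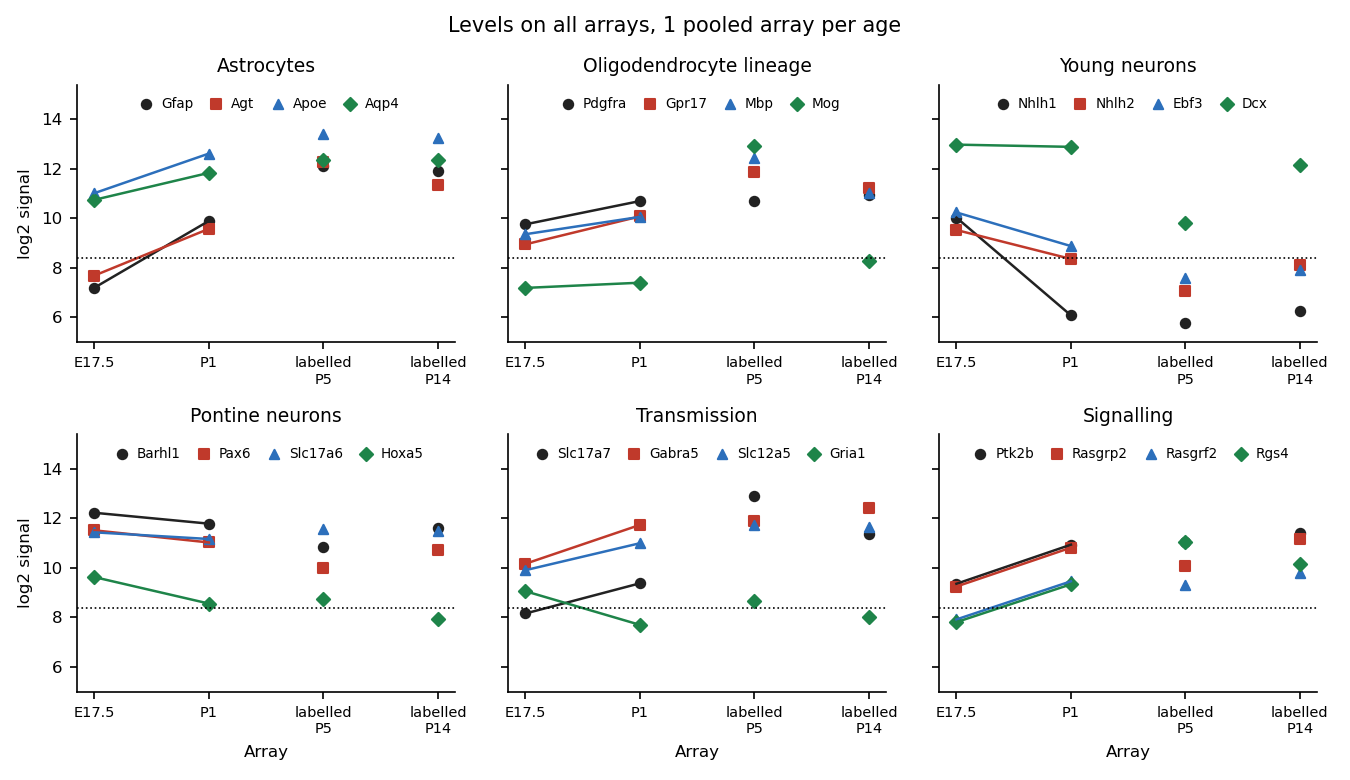
Levels (log2 signal, y axis) of 24 genes in 6 groups on the 4 arrays (x axis), 1 pooled array per age, with a line joining E17.5 and P1 only, since the order of the arrays labelled P5 and P14 is in doubt, and the level filter of 8.37 dotted. Gfap goes from 7.19 to 9.89 and stands at 12.09 and 11.91 on the arrays labelled P5 and P14, and Nhlh1 goes from 10.02 to 6.07 and stands at 5.75 and 6.23.

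The small RNAs between Dlk1 and Dio3, a block of imprinted genes on chromosome 12 read from the maternal chromosome in one long series of transcripts, were all higher at P1. This set was chosen after its values were seen, so it is described without a test. MicroRNAs are short RNAs that lower the output of messenger RNAs matching their seed. Of 40 microRNA genes of the block on the array, all 40 had a positive difference, with a median of 0.56, where 133 of 256 other microRNA genes (52.0%) were positive with a median of 0.01. Past the filter were 31, 9 of them through P1 only, and they ran from 0.04 to 1.25, with 3 at least 2-fold and 13 at least 1.5-fold higher. Mir379 was at 7.20 and 8.45, Mir380 at 8.65 and 9.89 and Mir411 at 7.90 and 9.01. Mir381 was at 7.94 and 8.81, Mir376b at 8.04 and 8.87 and Mir412 at 8.32 and 9.14. At the other end, Mir666 was at 8.92 and 8.96 and Mir134 at 10.83 and 10.91.

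The mature sequences of the 3 genes with the largest differences past the filter are shown, 5′ to 3′ from RefSeq on GRCm38.p6, with the seed, bases 2 to 8, in capitals. They lie on the plus strand of chromosome 12, from chr12:109709065-109709085 for miR-379-5p to chr12:109711842-109711863 for miR-380-3p.
mmu-miR-379-5p: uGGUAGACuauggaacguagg
mmu-miR-379-3p: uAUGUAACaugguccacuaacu
mmu-miR-411-5p: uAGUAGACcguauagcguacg
mmu-miR-411-3p: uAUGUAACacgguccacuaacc
mmu-miR-380-5p: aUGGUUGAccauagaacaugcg
mmu-miR-380-3p: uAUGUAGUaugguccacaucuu
The 3′ arms of miR-379 and miR-411 carry the same seed, AUGUAAC, while the 3′ arm of miR-380 carries AUGUAGU. The host transcripts of the block stood higher too, Meg3 at 12.78 and 13.21 and Rian at 10.17 and 10.75. Of the genes read from the paternal chromosome, Dlk1 was lower and Rtl1 higher, Dlk1 at 9.08 and 8.62 and Rtl1 at 8.05 and 8.37. Rtl1 just reached the filter, at P1 only, and so had to be higher. Dio3, which inactivates thyroid hormone, was under the filter at 6.35 and 6.60. Probes for a hairpin also read the transcript it is cut from, so the array cannot separate microRNA from host RNA, and neighbouring genes are not independent. The list of imprinted genes had a median of -0.04 over 23, and of -0.045 over the 20 outside this block. Igf2, the fetal growth factor, was at 9.97 and 9.65 and the growth inhibitor Cdkn1c at 9.94 and 9.45.

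**Figure D5:**
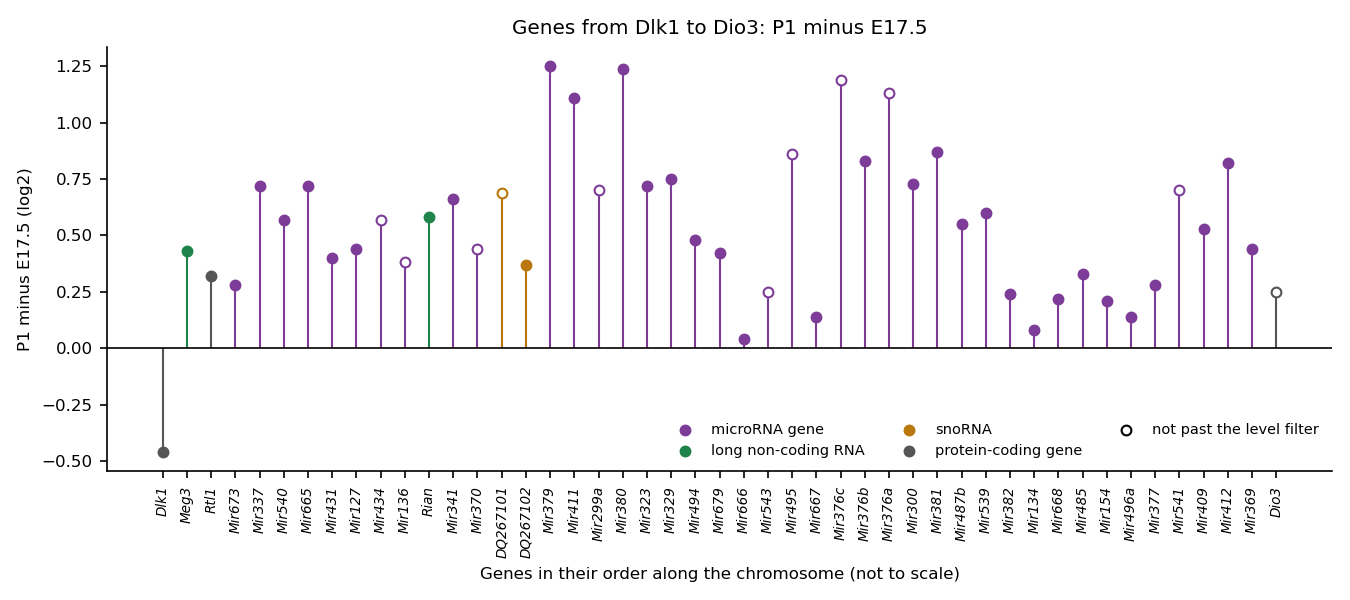
P1 minus E17.5 (log2, y axis) of each gene from Dlk1 to Dio3 in chromosomal order (x axis, not to scale), coloured by kind of gene, with open circles for genes under the level filter. All 40 microRNA genes lie above 0, from 0.04 in Mir666 to 1.25 in Mir379, and Dlk1 lies at -0.46.

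Among microRNA genes elsewhere, the lowest past the filter was Mir125b-1 (9.05 and 8.14), whose seed is shared with Mir125a, which was higher (8.28 and 8.62). Mir100, of the same transcript as Mir125b-1, was at 8.87 and 8.36, and their host Mir100hg differed by -0.54. Mir125b-1 and Mir100 passed the filter through E17.5 only and so had to be lower. Mir125a passed through P1 only and so had to be higher. The opposite directions of Mir125b-1 and Mir125a were thus fixed by the filter. The sequences show which arms share a seed, again in capitals. They lie on the plus strand at chr17:17830817-17830840 for miR-125a-5p, chr9:41581940-41581961 for miR-125b-5p and chr9:41531437-41531458 for miR-100-5p.
mmu-miR-125a-5p: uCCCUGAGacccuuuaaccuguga
mmu-miR-125b-5p: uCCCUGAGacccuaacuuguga
mmu-miR-100-5p: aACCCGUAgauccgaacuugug
The genes of let-7c and let-7e, which share GAGGUAG, also lay on both sides of 0, Mirlet7c-1 at -0.11 and Mirlet7e at 0.40. So did Mir181b-1, Mir181c and Mir181d, which share ACAUUCA and ran from -0.55 to 0.16. For the other shared seeds the genes lay on the same side, as in Mir100, Mir99a and Mir99b, which share ACCCGUA and ran from -0.51 to -0.04. Of these genes, Mir100 had to be lower, and Mir379 and Mir411, which share AUGUAAC, passed through P1 only and had to be higher. Lin28b, which blocks let-7 maturation, was at 8.08 and 8.42. Igf2bp3, an RNA-binding protein of fetal tissue, was at 9.06 and 8.05, and Mycn at 9.33 and 8.92. The fetal RNA programme, 15 genes on the array, had a median of -0.11.

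Genes of the oxygen response lay somewhat below the median of all genes and those of fat and ketone use were mixed. Of 25 genes of the hypoxia response, 18 were negative, with a median of -0.15 against -0.03 over all genes, 55.7% of which were negative. The 17 past the filter had one of -0.27, with Ndrg1, also a gene of myelinating cells, as the highest (9.08 and 10.03). The histone demethylase Kdm3a was at 9.73 and 9.21, the glycolytic activator Pfkfb3 at 10.17 and 9.66, and Vegfa, which draws in vessels, at 10.40 and 10.06. None of these 17 was 1.5-fold lower. Genes of fatty acid oxidation and ketone use had a median of 0.10 over 21. Slc16a1, the carrier of lactate and ketone bodies, was 2.04-fold higher (9.12 and 10.15), Cpt1a, which admits fatty acids to mitochondria, was at 9.10 and 9.86, the mitochondrial acetate enzyme Acss1 at 9.0 and 9.73, and Aldh1l1, a folate enzyme used to mark astrocytes, at 9.57 and 10.37. Astrocytes also express Slc16a1 and Cpt1a, and the part of the astrocyte genes in these values was not tested. Oxct1, the enzyme that commits ketone bodies to use in neurons, was at 10.85 and 11.00. Oxidative phosphorylation (42 genes, median -0.015) and ribosomal proteins (29 genes, median 0.04) were level.

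Hormone and stress responses gave mixed values. Glucocorticoid responsive genes had a median of 0.04 over 24, with Fkbp5, a sensitive target, at 9.41 and 9.44, the metallothionein Mt2 at 12.12 and 12.94, and Dusp1, also an early response gene, at 11.08 and 10.18. The immediate early gene list had a median of -0.03 over 26, and Fos was under the filter at 7.22 and 7.38. Thyroid hormone signalling had a median of 0.18 over 18 genes, with its target Klf9 at 8.42 and 8.94, and Hr, another target, under the filter at 7.78 and 7.79. Clock genes had a median of 0.17 over 20. The repressor Bhlhe41 was at 7.52 and 8.46, the output factor Hlf at 9.60 and 10.43 and Arntl, which encodes BMAL1, at 8.51 and 9.17, while the hour at which tissue was taken is not given in the sources used here. Slc7a11, the cystine importer of astrocytes, was 2.23-fold higher (8.53 and 9.69), opposite to the glutathione transferase Gstm7.

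The matrix around neurons had a median of 0.11 over 34 genes. Bcan, a proteoglycan of astrocytes and precursors, was at 10.38 and 11.58, the secreted glial protein Sparc at 11.38 and 12.29, the laminin chain Lama1 at 8.20 and 9.09 and the protease inhibitor Timp4 at 9.35 and 10.22. The vessel collagens Col4a1 (8.69 and 8.43) and Col4a2 (8.62 and 8.38) were lower. Among synapse organisers (36 genes, median 0.025), C1ql1 was at 9.44 and 10.04 and C1ql3 at 9.15 and 8.34. Lipid genes had a median of 0.10 over 35, led by Cidea, Apoe, Apod (8.48 and 9.27) and the cholesterol exporter Abca1 (9.28 and 10.03). Genes of cholesterol synthesis, 21 and all past the filter, lay near the other genes. Of these 16 were negative with a median of -0.13, against 61.8% and -0.07 for all genes past the filter. The 55 lists held 1037 of the 10173 genes past the filter. Among these were 37 of the 85 genes at least 2-fold higher and 19 of the 30 lower. The lists were drawn up with earlier results of these data known, so these counts only describe what the lists cover.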

How the data were processed

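Gene expression was measured on Affymetrix whole-transcript arrays, 1 pooled array per age, from total RNA of dissected pontine nucleus. The deposited values are log2 signals per probe set, normalised by the authors with Affymetrix Expression Console per the submitters' processing notes. Which release, summary and between-array method they used is not given in the sources used here. That values are log2 was taken from their range. Array medians over 35556 probe sets ran from 7.89 to 7.94. The platform's gene table named 23410 probe sets, 21789 with 1 symbol and 1621 with several, and 12146 were unnamed here. Of those with 1 symbol, 21698 had their Entrez identifier in the RefSeq table for GRCm38.p6, used for names, and no symbol differed.

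P1 minus E17.5 was taken per gene, with 1 probe set per gene and the level filter drawn from these 2 arrays alone and no rescaling (Python 3.11.15, pandas 2.3.3, numpy 2.4.6). The members of the comparison, the 55 gene lists and the rules were chosen with earlier results of these data known, so nothing here is independent support. Genes were named as the 20 largest differences each way past the filter, without predicted, clone-named, small RNA and olfactory genes, as up to 4 members each way of a list described, and as fixed names. Genes named beyond these were chosen after their values were seen. The 8 alternatives of the closing section were run, and the counting steps were tested on simulated data. The number of arrays, 1 per age, limits all precision.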

Additional observations from a re-analysis of the deposited data

How the results depend on the processing

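No paired analysis was possible because each age had 1 array. There were 8 alternatives: no level filter, the filter on the mean, on both arrays or at the upper quartile of 9.90, the mean of all probe sets, and values centred, quantile normalised or smoothed on level. Of 64 values, counts and the median of all genes, 53 stayed the same. For a count this means within 1.5 times, and for that median within the probe set spread. With both arrays past the filter, 66 genes were 2-fold apart, 51 higher and 15 lower. At the upper quartile these were 55, 42 and 13, and 1.5-fold differences numbered 272, 162 higher and 110 lower. Of the microRNA genes between Dlk1 and Dio3, 8 of 8 past that filter were positive, with a median of 0.35. Centring gave 145 genes 1.5-fold lower. These alternatives test fewer genes, except centring, which keeps the genes and subtracts the median difference of -0.07 from each, so that fewer reach the lower limit.

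Of the list medians, 407 moved by less than the probe set spread and 30 by more. A turn in sign was counted only for medians at least as large as that spread, and there were 2. Smaller medians crossed 0 as well, among them interferon (0.10 in the main setting), cerebellar neurons (0.085), pericytes (0.06) and neuropeptides (0.02). Without a filter the medians were -0.15 for hypoxia, -0.38 for Hox and TALE factors, 0.10 for radial glia, 0.37 for myelin, 0.145 for complement and reactive glia, -0.065 for pericytes, -0.095 for other hindbrain neurons, -0.08 for cerebellar neurons and, turned in sign, -0.08 for red blood cells. With the filter on the mean they were 0.14 for complement and -0.08 for other hindbrain neurons. With both arrays past the filter they were 0.03 for the clock, -0.44 for neuropeptide receptors, 0.065 for complement, -0.08 for other hindbrain neurons and -0.13 for cerebellar neurons. At the upper quartile they were 0.13 for thyroid signalling, 0.03 for the clock, -0.10 for interferon, 0.51 for red blood cells, -0.13 for neuropeptides, -0.44 for their receptors, 0.145 for GABA and glycine receptors, 0.18 for synapse organisers, 0.18 for neurotrophins, 0.95 for myelin, 0.31 for microglia, -0.06 for other hindbrain neurons, -0.165 for cerebellar neurons, 0.43 for the matrix and, turned in sign, -0.11 for complement. Of 401 named genes, 7 moved under the mean of all probe sets (Birc2 -0.15, Igf2bp1 -0.56, Kcnma1 0.635, Nova1 0.215, Qk 0.12, Shank2 0.56, Tmem196 1.00). Low signal limits the sizes below 8.37.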

Other observations

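Genes of peptides and of peptide, monoamine and cannabinoid receptors held differences both ways. Vgf, a secreted peptide precursor of active neurons, read 8.68 on the E17.5 array and 9.88 on the P1 array, and Penk, the enkephalin precursor, at 8.46 and 9.39. Scg2, a granin of dense core vesicles, stood at 8.69 and 9.34, and Adcyap1, which encodes PACAP, at 10.94 and 10.48. Among receptors, Grpr, for bombesin-like peptides, stood at 10.93 and 9.97 and the cannabinoid receptor Cnr1 at 11.48 and 10.68, beside the somatostatin receptors Sstr1 and Sstr2. Of the 11 receptors past the filter 5 were positive, against 36.7% of all genes past it. Among them were the neurotensin receptor Ntsr2 (8.16 and 8.70), the serotonin receptor Htr1b (8.90 and 9.29) and the PACAP receptor Adcyap1r1 (11.45 and 11.83). Of the 11, 5 passed through 1 array only. Ntsr2, Cckbr and Drd2 did so at P1 and had to be higher, and Sstr2 and Tacr1 at E17.5 and had to be lower. With both arrays past the filter the median of the receptors was -0.44. Over all members on the array the medians were 0.02 for 27 peptides and -0.05 for 28 receptors. Igf1, a growth factor of the postnatal brain, stood at 8.07 and 8.90, against 9.97 and 9.65 for Igf2.

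Chromatin and RNA regulators lay near or slightly below the other genes, and none past the filter was 1.5-fold apart. Over all genes on the array 55.7% were negative, and 61.8% of those past the filter. Of 28 genes of DNA methylation and Polycomb repression, 20 were negative, with a median of -0.175. Ezh2, the Polycomb methyltransferase of progenitors, stood at 11.52 and 11.10 and Bmi1 at 9.53 and 9.06, while Dnmt3a, a DNA methyltransferase of postmitotic neurons, stood at 9.95 and 10.20. Of 30 genes of chromatin remodelling and RNA processing, 24 were negative, with a median of -0.115, among them Dpf3 (11.48 and 10.92). Nova1, a splicing factor, stood at 12.10 and 12.48 on 1 of its probe sets. Apoptosis regulators, 25 genes, had a median of -0.06, with Bcl2, which protects cells from death, at 10.51 and 10.98 and the caspase Casp2 at 10.53 and 10.07.

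Other lists were near level. Over all members on the array the medians were 0.03 for interferon and class I genes, 0.01 for metallothioneins and antioxidant enzymes, -0.08 for heat shock genes, -0.02 for glycolysis, -0.02 for neurotrophins and their receptors, -0.02 for BMP, Wnt and IGF signals, -0.065 for pericytes and meninges, and 0.005 for housekeeping genes. Within them B2m, the light chain of class I molecules, stood at 9.97 and 10.66, and the cold-inducible RNA-binding proteins Rbm3 and Cirbp stood at 12.47 and 12.71 and at 11.08 and 11.43. Complement and reactive glia had a median of 0.145 over 22 genes, led by Gfap, Il33 and Serpina3n, and Serping1 stood at 10.79 and 10.26. The choroid plexus gene Ttr stood at 6.43 and 6.59 and Dio2, which activates thyroid hormone, at 6.53 and 6.36, all under the level filter.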
